A study of Mus musculus with 8 samples.

Results

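The genes followed act in extracellular purine signalling: 5 nucleotide receptors (P2ry12, P2ry13, P2ry6, P2rx4 and P2rx7), 2 ectonucleotidases (Entpd1 and Nt5e) and 2 adenosine receptors (Adora2b and Adora3). They were taken by name, with earlier results of these data known, and all 9 were found among the 20340 genes of the count tables. The cells came from brains of C57BL/6J males, 8 to 9 weeks of age, sorted as live. Every mouse had undergone a 60 min occlusion of the middle cerebral artery by an intraluminal suture, followed by reperfusion, so that no unoperated animal is among the groups and the contralateral hemisphere of operated mice stood in as control. The groups were the ipsilateral hemisphere of mice labelled Prdx1-/- at 24 h, Prdx1-/- at 48 h, WT at 24 h and WT at 48 h, and the contralateral hemisphere under the same 4 labels, with 1 library each. Prdx1 encodes peroxiredoxin 1, which removes hydrogen peroxide. The labels do not say how many animals a library pools. The p-values thus reflect how much these 8 libraries vary, and part of that may be technical. Nor do the labels say whether both hemispheres of a genotype label and time came from the same mice. The tests of label and time counted them as independent, so their p-values and counts of pairs may overstate replication.

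Injured cells release ATP, ADP and UDP, which act on the P2X channels and the P2Y receptors of neighbouring cells. Entpd1 (CD39) strips ATP and ADP to AMP, and Nt5e (CD73) turns AMP into adenosine, the ligand of the Adora receptors. In the brain, microglia are known for P2ry12, an ADP receptor through which their processes move towards damage, and for losing it when they leave the resting state.

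The genes lie on 6 mouse chromosomes (GENCODE M21, GRCm38). P2ry13 (chromosome 3, 59207892 to 59210882) and P2ry12 (chromosome 3, 59216272 to 59262871) are neighbours on the minus strand, 5389 bases apart, and both lie within Med12l, which runs on the other strand. P2rx7 (chromosome 5, 122643911 to 122691432) and P2rx4 (chromosome 5, 122707544 to 122729738) lie head to tail on the plus strand, 16111 bases apart. The others are P2ry6 (chromosome 7, 100937630 to 100974649), Nt5e (chromosome 9, 88327197 to 88372092), Adora2b (chromosome 11, 62248984 to 62266453), Entpd1 (chromosome 19, 40612366 to 40741602) and Adora3 (chromosome 3, 105870858 to 105908926). Adora3 shares its locus and strand with Tmigd3, listed at 0.781 to 1.35 CPM (counts per 1000000 UMIs) in microglia-like cells, so reads of the shared stretch may be split between the pair.

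RefSeq promoters (GRCm38.p6, 250 bases before to 50 after the start) were found for 8 of the 9 genes. The 4 printed below were chosen by what the genes did between hemispheres. P2ry12 and P2ry13 are the neighbours that were lower together in ipsilateral microglia-like cells. Adora2b and Nt5e were called higher in ipsilateral neutrophil-like cells. Adora2b was so in monocyte/macrophage-like cells too, where Nt5e did not pass over all 8 libraries. Capitals mark GAGGAA (the PU box, in P2ry13), CACGTG (an E box, in P2ry12) and GGGCGG (the GC box, in Adora2b and Nt5e), each searched on both strands. The sequences run 5′ to 3′ along the gene at chr3:59262936-59263235 (minus strand) for P2ry12, chr3:59210833-59211132 (minus strand) for P2ry13, chr11:62248734-62249033 (plus strand) for Adora2b and chr9:88327359-88327658 (plus strand) for Nt5e.
P2ry12: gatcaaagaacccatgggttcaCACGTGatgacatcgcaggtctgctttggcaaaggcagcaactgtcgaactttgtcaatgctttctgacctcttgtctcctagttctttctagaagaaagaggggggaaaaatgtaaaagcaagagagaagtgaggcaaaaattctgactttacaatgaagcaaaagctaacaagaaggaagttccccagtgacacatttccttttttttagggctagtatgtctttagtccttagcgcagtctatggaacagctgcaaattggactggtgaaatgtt
P2ry13: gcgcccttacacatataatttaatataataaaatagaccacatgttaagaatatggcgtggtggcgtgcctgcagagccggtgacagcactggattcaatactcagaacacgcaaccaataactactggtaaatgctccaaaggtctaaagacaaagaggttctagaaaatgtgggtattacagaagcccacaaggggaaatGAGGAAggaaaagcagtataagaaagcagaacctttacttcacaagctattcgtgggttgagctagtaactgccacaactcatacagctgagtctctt
Adora2b: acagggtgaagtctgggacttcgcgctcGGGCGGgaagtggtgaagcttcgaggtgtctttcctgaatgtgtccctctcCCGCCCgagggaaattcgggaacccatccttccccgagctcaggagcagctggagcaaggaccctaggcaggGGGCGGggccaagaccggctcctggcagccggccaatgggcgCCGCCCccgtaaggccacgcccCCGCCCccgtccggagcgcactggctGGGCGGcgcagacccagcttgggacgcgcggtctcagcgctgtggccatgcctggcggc
Nt5e: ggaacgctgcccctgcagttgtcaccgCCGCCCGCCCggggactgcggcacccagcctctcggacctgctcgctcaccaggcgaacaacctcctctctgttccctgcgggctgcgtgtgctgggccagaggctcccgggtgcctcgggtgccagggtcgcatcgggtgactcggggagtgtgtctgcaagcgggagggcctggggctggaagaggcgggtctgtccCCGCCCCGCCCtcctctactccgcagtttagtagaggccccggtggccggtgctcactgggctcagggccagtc

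The CACGTG of the P2ry12 promoter also holds ACGTG on both strands, a core searched for separately. Of 32851 RefSeq promoters of this length, 28.3% held GAGGAA, 7.15% held CACGTG, 19.6% held ACGTG and 35.7% held GGGCGG. The Adora2b promoter held 6 GC boxes and that of Nt5e held 4 in overlapping pairs, whereas neither P2ry12 nor P2ry13 had any. Among the promoters not printed, a P2rx7 promoter held 2 and another held 0, and that of P2rx4 held 1. Those of Adora3 and Entpd1 held 0. GAGGAA was not particular to P2ry13: each P2rx7 promoter and that of Adora3 held 1. An Entpd1 promoter held 2 and another held 0. The printed genes were chosen by direction, and a link between GC boxes and direction was not tested. These matches describe letters and show no binding.

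As deposited, the libraries held 39433266 to 70111421 UMIs (unique molecular identifiers, each standing for 1 captured RNA molecule) in 4189 to 5759 cells. Of 39945 cells, 38025 were used, with a median of 7184 to 12950 UMIs per library. Cells were clustered without the 9 genes and Prdx1, and classes were named from marker genes, so names end in "-like" and may differ from the study's own. Microglia-like cells numbered 466 to 1992 per ipsilateral library and 2930 to 4580 per contralateral library. The other classes tested were monocyte/macrophage-like cells (547 to 2180 per ipsilateral and 83 to 386 per contralateral library), neutrophil-like cells (959 to 1825 and 45 to 293) and T and NK-like cells (66 to 159 and 43 to 160). Prdx1 checked the genotype labels: in microglia-like cells the ipsilateral libraries labelled Prdx1-/- held 142 CPM at 24 h and 5.60 CPM at 48 h, against 247 and 418 CPM in those labelled WT, and the contralateral ones held 88.6 and 6.00 CPM, against 258 and 336 CPM. The 24 h libraries labelled Prdx1-/- thus held Prdx1 transcripts that the 48 h ones nearly lacked, and the label is used below only as a label. Between the 8 libraries, 203 cell barcodes occurred more than once among 39742 distinct ones, at most 17 for a pair of libraries.

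Levels are CPM of the summed UMIs of a class in a library. They compare classes for a given gene and not genes with each other, and differences between classes are a description, since the classes were built from the same expression data. P2ry12 averaged 769 ± 390.1 CPM in microglia-like cells, 125 ± 76.3 CPM in border macrophage-like cells (6 libraries) and 42.3 ± 33.5, 44.2 ± 31.5 and 21.2 ± 23.1 CPM in monocyte/macrophage-like, neutrophil-like and T and NK-like cells (SD, 8 libraries each). Microglia-like cells stood alone at the top, with a lowest library of 318 CPM against a highest of 230.1 CPM in border macrophage-like cells, and the 3 lower classes overlapped. P2ry13, another ADP receptor, averaged 313 ± 117 CPM in microglia-like, 73.4 ± 27.0 CPM in neutrophil-like, 63.1 ± 22.4 CPM in border macrophage-like and 16.5 ± 10.5 CPM in monocyte/macrophage-like cells, and the middle pair overlapped. Neutrophil-like levels of P2ry13 were 10.0% to 60.7% of the microglia-like level of the same library, whereas Tmem119, which marks microglia, reached at most 8.46%. The P2ry13 percentage exceeded that of Tmem119 in every library.

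In cells thinned to 3000 UMIs each, 19.7% of ipsilateral and 17.5% of contralateral neutrophil-like cells had a P2ry13 UMI (95% exact binomial intervals 18.6 to 20.9 and 14.4 to 21.0, for counting error only), against 0.416% and 2.56% of T and NK-like cells. Unthinned, the shares were 27.8% and 26.2% of neutrophil-like cells, whose median depth was 4358 UMIs, and 1.62% and 7.20% of T and NK-like cells, whose median depth was 5811 UMIs. Thinning left out 711 ipsilateral and 63 contralateral neutrophil-like cells as too shallow.

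The UDP receptor P2ry6 and the ATP-gated channels had their highest averages of the 5 classes in microglia-like and border macrophage-like cells, and P2rx7 was found in T and NK-like cells too. P2ry6, known for triggering phagocytosis in microglia, averaged 246 ± 66.7 CPM in microglia-like cells and 239.6 ± 66.6 CPM in border macrophage-like cells, well within their spread, then 96.1 ± 21.6 CPM in monocyte/macrophage-like and 30.3 ± 14.3 CPM in neutrophil-like cells. P2rx4 averaged 148 ± 28.9 CPM in border macrophage-like, 97.7 ± 8.73 CPM in microglia-like and 87.4 ± 18.1 CPM in monocyte/macrophage-like cells, and the last 2 overlapped. P2rx7, the channel that links high ATP to the NLRP3 inflammasome, averaged 88.4 ± 25.6 CPM in border macrophage-like and 59.0 ± 17.8 CPM in microglia-like cells, which overlapped. It averaged 20.6 ± 5.78 CPM in T and NK-like and 15.7 ± 5.24 CPM in monocyte/macrophage-like cells, which overlapped too, and 1.99 ± 1.25 CPM in neutrophil-like cells. In T and NK-like cells that was a median of 34.8% of the microglia-like level of the same library (16.8% to 54.6%). Adora3, an inhibitory adenosine receptor, was highest in microglia-like cells, at 79.2 ± 20.4 CPM, with 13.5 ± 7.15 CPM in neutrophil-like cells and less on average in the other 3 classes.

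Entpd1 and Nt5e, consecutive steps from ATP to adenosine, ranked the classes differently. Neutrophil-like and monocyte/macrophage-like cells held both, whereas microglia-like cells held Entpd1 with almost no Nt5e. Entpd1 averaged 253 ± 93.0 CPM in neutrophil-like and 183 ± 89.7 CPM in microglia-like cells, which overlapped, then 67.3 ± 15.9 CPM in border macrophage-like, 66.0 ± 19.7 CPM in monocyte/macrophage-like and 23.5 ± 11.2 CPM in T and NK-like cells. Nt5e averaged 74.6 ± 24.8 CPM in T and NK-like, 59.2 ± 40.0 CPM in neutrophil-like and 31.9 ± 17.5 CPM in monocyte/macrophage-like cells, whose libraries overlapped, and 0.407 ± 0.422 CPM in microglia-like cells. Microglia-like cells thus held Entpd1 in every library and almost no Nt5e. Of all Nt5e UMIs in the ipsilateral libraries, 47.0% came from monocyte/macrophage-like, 39.6% from neutrophil-like and 4.23% from T and NK-like cells, shares that also depend on how many cells of each class were captured. Adora2b, a low-affinity adenosine receptor, averaged 75.9 ± 41.0 CPM in monocyte/macrophage-like and 10.3 ± 10.4 CPM in neutrophil-like cells, and 1.14 ± 1.10 CPM in microglia-like cells.

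**Figure D1:**
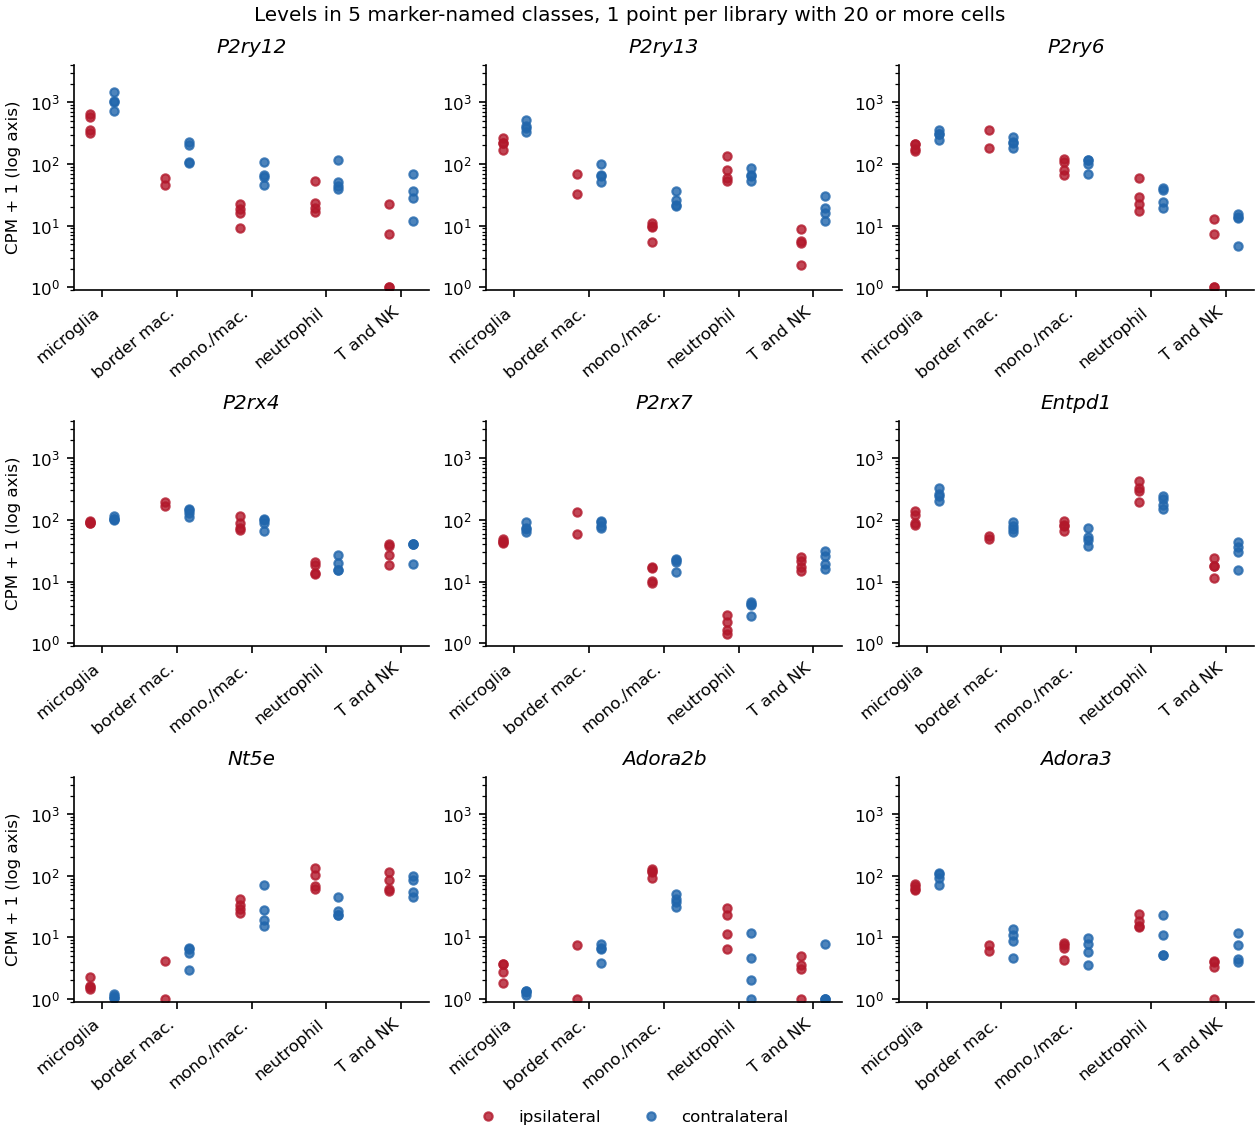
CPM + 1 (log axis) of each gene in 5 classes, with 1 point per library of at least 20 cells, ipsilateral left of contralateral. P2ry12 separates microglia-like cells from the rest, Entpd1 is high in microglia-like and neutrophil-like cells, and Nt5e and Adora2b sit near the bottom in microglia-like cells.

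Over 58 class-by-library sums of 10 classes, the genes most like each member by Pearson correlation of log2(CPM + 1) were taken as a description, since the points share libraries and the same class contrasts. P2ry12 was closest to Tmem119 (r = 0.91), with Ptgs1 also among the closest. P2ry13 was closest to P2ry12 itself (r = 0.90), and P2ry6 to Csf1r (r = 0.94). P2rx7 was closest to Frmd4b (r = 0.92), P2rx4 to Prcp (r = 0.89), Entpd1 to Cd33 (r = 0.85) and Nt5e to Mbd2 (r = 0.83). Adora2b and Adora3 averaged below 20 CPM over these sums, the least level for this comparison.

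In microglia-like cells, Entpd1, P2ry12, P2ry13, P2rx7, P2ry6 and Adora3 were lower in the ipsilateral hemisphere, with log2 fold changes of -1.16 to -0.40, and P2rx4 did not pass the test. Of all 13167 genes tested by edgeR's quasi-likelihood test, 43.0% passed a Benjamini-Hochberg adjusted p of 0.05 between hemispheres, 21.0% lower and 22.0% higher. Of the 9 members, 6 were lower and 2 were higher, with a median log2 fold change of -0.51 over the members and -0.01 over all genes tested. Fold changes use TMM scaling, and the log2 ratio of raw CPM differed from them by a median of -0.13 over genes. All 4 ipsilateral libraries lay outside the contralateral range for 8 of the 9 members, all but Adora3, and for 31.9% of genes. The 8 members that passed edgeR's test, all but P2rx4, also passed with the same signs under DESeq2.

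The ADP receptors showed the decrease in every matched pair. In the ipsilateral libraries P2ry12 stood at 318, 352, 650.1 and 567 CPM (labelled Prdx1-/- at 24 h, Prdx1-/- at 48 h, WT at 24 h and WT at 48 h), against 1010.3, 726, 1467 and 1062 CPM in the contralateral libraries in the same order. The sides did not overlap, and the log2 fold change was -1.06 ± 0.11 (SE; edgeR quasi-likelihood adjusted p = 1.04e-04). P2ry13 stood at 219, 165, 264 and 221 CPM on the ipsilateral side, against 411, 325, 509 and 388 CPM on the contralateral side, also without overlap (log2 fold change -0.77 ± 0.08, edgeR adjusted p = 8.61e-05). After thinning, 64.2% of ipsilateral and 86.3% of contralateral microglia-like cells had a P2ry12 UMI (intervals 62.8 to 65.5 and 85.7 to 86.9), and 89.5% and 96.7% did unthinned, at a median of 7985 UMIs. The thinned shares in T and NK-like cells, which should lack the gene, were 1.04% and 6.27%.

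**Figure D2:**
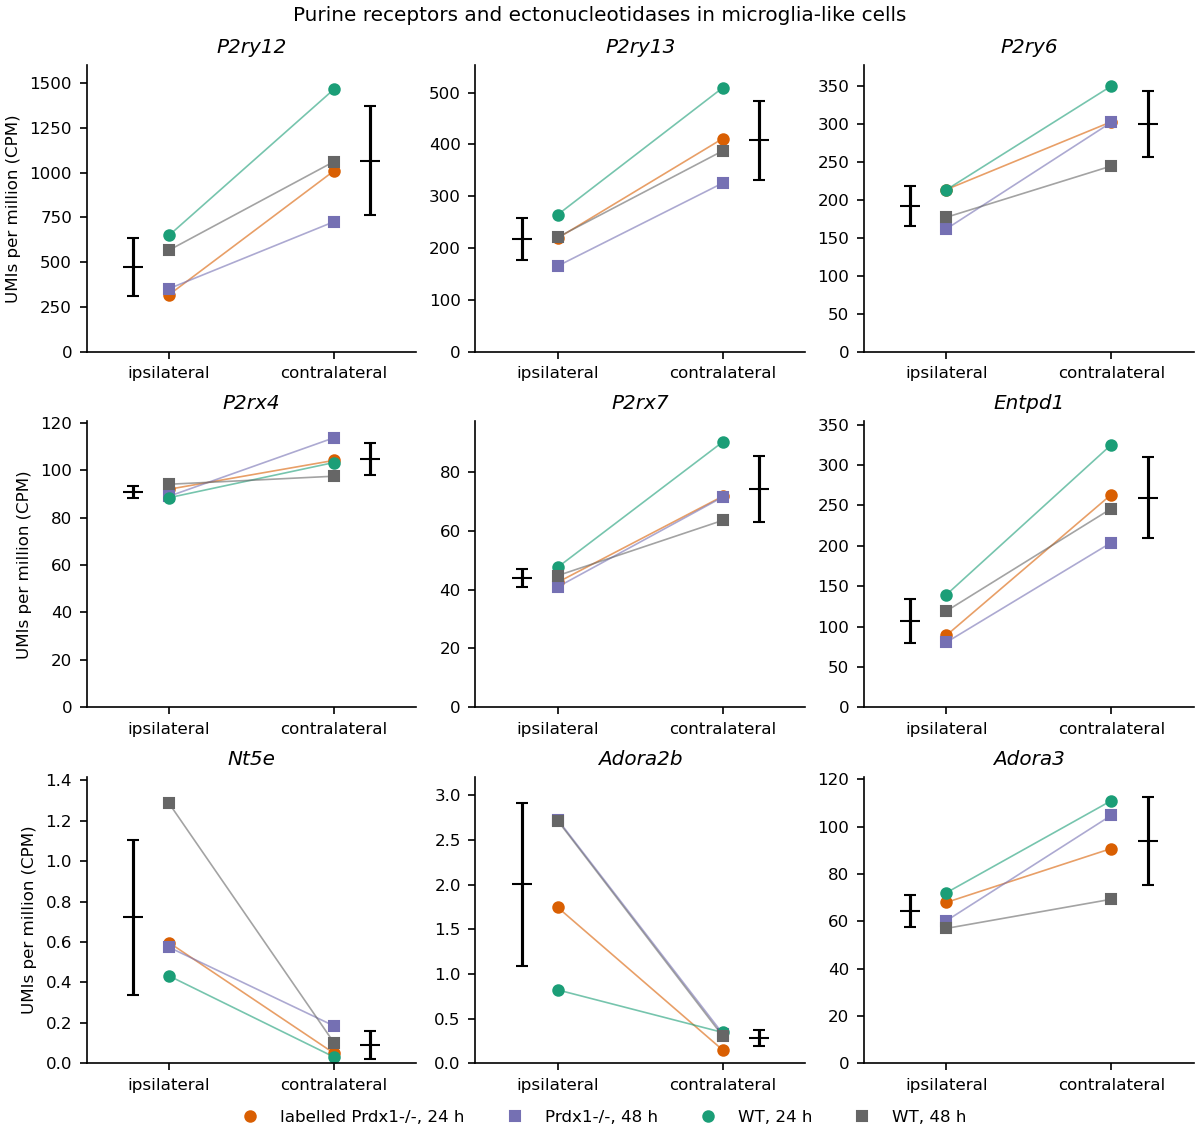
CPM of the 9 genes in microglia-like cells. Each line joins the ipsilateral and the contralateral library of 1 genotype label and time, and black bars are the mean ± SD of 4 libraries. The ipsilateral library is the lower one in all 4 pairs for P2ry12, P2ry13, P2ry6, P2rx7 and Entpd1, P2rx4 lies close on both sides, and Nt5e and Adora2b stay below 3 CPM.

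P2ry6 stood at 214, 162, 213 and 177 CPM in ipsilateral libraries, against 303, 302, 350.0 and 245 CPM in contralateral libraries, with a log2 fold change of -0.51 ± 0.09 (edgeR adjusted p = 0.00129). P2rx7 stood at 42.5, 40.9, 47.6 and 44.7 CPM, against 71.6, 71.3, 90.0 and 63.4 CPM (log2 fold change -0.62 ± 0.07, edgeR adjusted p = 2.06e-04). The sides of neither gene overlapped. P2rx4, the neighbour of P2rx7, stood at 91.9, 89.0, 88.4 and 94.0 CPM in ipsilateral libraries, against 104, 114, 103 and 97.4 CPM in contralateral ones. All 4 pairs were lower in raw CPM, and relative to the other genes the log2 fold change was -0.06 ± 0.07, with an interval (1.96 SE to either side) of -0.21 to 0.08 (edgeR adjusted p = 0.496). It was 0.11 ± 0.08 (adjusted p = 0.272) once the unnamed cluster described below was added.

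Entpd1 had the lowest fold change of the members. It stood at 89.2, 80.7, 139.5 and 119 CPM in ipsilateral libraries, against 263, 204, 325 and 246 CPM in contralateral libraries, with no overlap (log2 fold change -1.16 ± 0.09, edgeR adjusted p = 2.40e-05). Its share of microglia-like cells with a UMI after thinning was 30.0% on the ipsilateral and 55.1% on the contralateral side (intervals 28.7 to 31.4 and 54.3 to 55.9), and 64.8% and 82.8% unthinned, against 4.16% and 7.12% of T and NK-like cells after thinning.

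Adora3 stood at 68.0, 60.3, 72.1 and 57.0 CPM in ipsilateral libraries, against 90.8, 105, 111 and 69.3 CPM in contralateral ones, so the sides overlapped (log2 fold change -0.40 ± 0.11, edgeR adjusted p = 0.0140). That call was lost without the ipsilateral library labelled Prdx1-/- at 48 h (adjusted p = 0.0541) and in the libraries labelled WT alone (0.154), where P2ry6 missed it too (0.0656). Nt5e was called higher at 0.433 to 1.29 CPM on the ipsilateral side, against 0.0314 to 0.185 CPM on the contralateral side (log2 fold change 3.13 ± 0.52, edgeR adjusted p = 0.00110). Adora2b likewise stood at 0.822 to 2.73 CPM, against 0.150 to 0.346 CPM (2.85 ± 0.38, edgeR adjusted p = 3.38e-04). Both are traces: after thinning 0.387% of ipsilateral and 0.0899% of contralateral microglia-like cells had an Adora2b UMI, against 0.416% and 0.285% of T and NK-like cells. Classes rich in both genes were more numerous in the ipsilateral libraries, and the part of their free RNA in these calls was not tested.

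The microglia-like class was made of 8 clusters. P2ry12 ran from 1865 CPM in cluster 0 (led by P2ry12 and Siglech) through 1205 CPM in cluster 1 (Klf2, Fosb) to 271 CPM in cluster 3 (Tnf, Ccl12) and 251 CPM in cluster 23 (Spp1). Entpd1 ran from 390.5 CPM in cluster 0 and 298 CPM in cluster 1 to 80.8 CPM in cluster 3 and 75.8 CPM in the proliferating cluster 14 (Mki67, Top2a). P2rx4 lay between 72.7 CPM in cluster 14 and 116 CPM in cluster 16, without following that order. The makeup of the class moved with the hemisphere: cluster 3 held 45.1% ± 16.9 of microglia-like cells in ipsilateral and 10.3% ± 4.05 in contralateral libraries, and cluster 0 held 4.17% ± 4.10 and 33.4% ± 16.6 (SD, n = 4 each).

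Within cluster 1 alone, where 5.69% of genes passed, 4 of 7 members tested were lower in ipsilateral libraries, namely Entpd1 (-0.40 ± 0.09), P2ry12 (-0.38 ± 0.10), P2ry13 (-0.35 ± 0.09) and P2ry6 (-0.33 ± 0.09), with edgeR adjusted p from 0.00841 to 0.0404. Within cluster 3 alone, where 2.28% of genes passed edgeR's test, 0 of 8 members did and 3 had an unadjusted p under 0.05. There Entpd1 had a log2 fold change of -0.41 ± 0.12 (adjusted p = 0.0957) and P2ry12 one of -0.07 ± 0.18 (0.936). Both within-cluster values of P2ry12 were nearer 0 than that over the class.

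**Figure D3:**
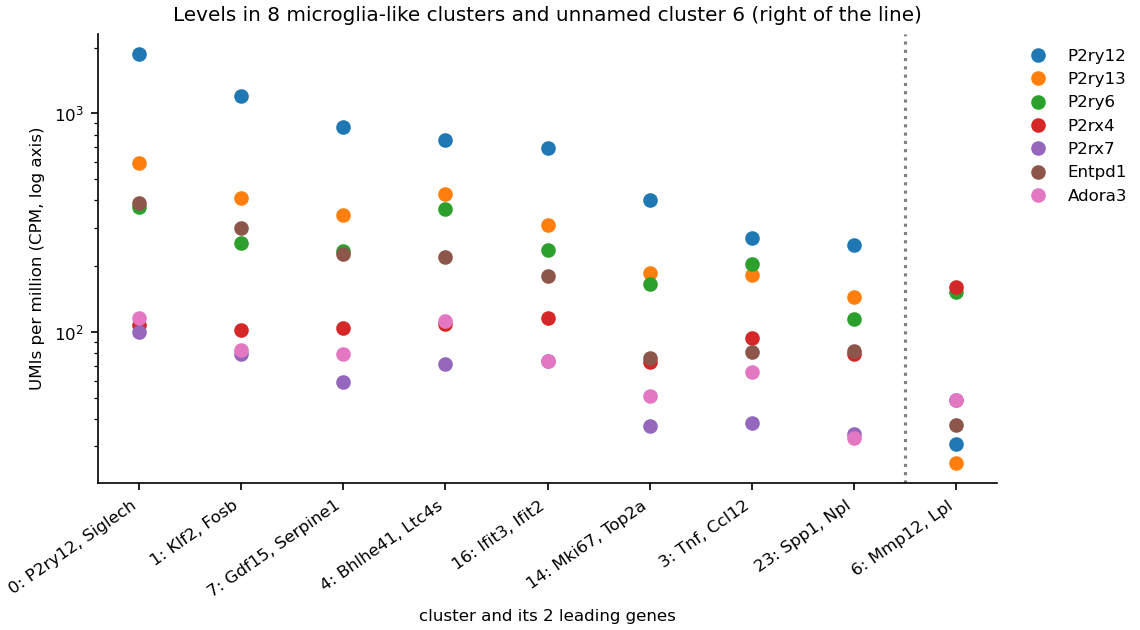
CPM (log axis) of 7 genes in the 8 microglia-like clusters, ordered by P2ry12, and in the unnamed cluster 6 to the right of the dotted line, all libraries pooled. P2ry12, P2ry13 and Entpd1 fall steeply along the clusters and are lowest in cluster 6, whereas P2rx4 is highest there.

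Cluster 6, led by Mmp12, Lpl and Spp1, stayed unnamed because its microglial marker score was too close to that of another class. Of its 1754 cells, 1131 came from the ipsilateral WT library at 24 h and 389 from the ipsilateral one labelled Prdx1-/- at 24 h. In the 4 ipsilateral libraries P2ry12 stood at 25.5 to 50.1 CPM and Entpd1 at 21.9 to 40.2 CPM there, below every microglia-like library. P2rx4 stood at 142 to 169 CPM, above the 88.4 to 94.0 CPM of ipsilateral microglia-like cells, and P2ry6 at 139 to 188 CPM, overlapping the microglia-like 162 to 214 CPM. With cluster 6 added to the microglia-like class, where 47.0% of all genes passed, the log2 fold change between hemispheres was -1.45 ± 0.14 for P2ry12, -1.45 ± 0.09 for Entpd1, -1.13 ± 0.11 for P2ry13 and -0.61 ± 0.08 for P2rx7.

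**Figure D4:**
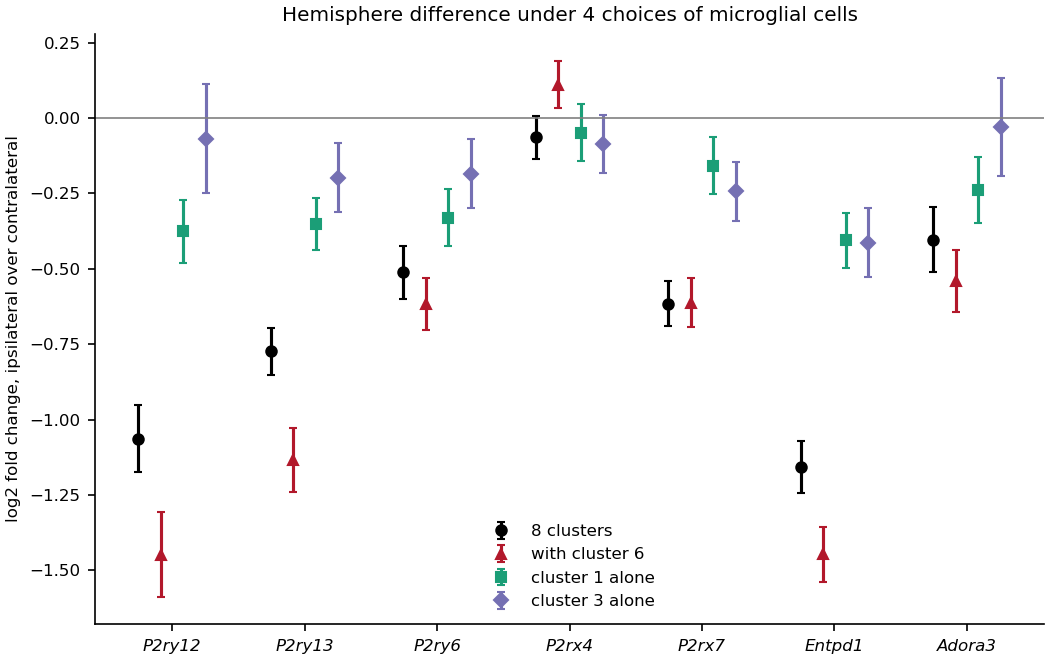
Log2 fold change (ipsilateral over contralateral, ± SE, edgeR) of 7 genes in the 8 microglia-like clusters together, with cluster 6 added, and within clusters 1 and 3 alone. The value for P2ry12 runs from -1.45 with cluster 6 to -0.07 within cluster 3, and P2rx4 stays near 0.

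In monocyte/macrophage-like cells, which were more numerous in the ipsilateral libraries, Adora2b was higher and P2ry12 and P2ry13 were lower on that side. Adora2b stood at 128, 116, 117 and 90.2 CPM in the ipsilateral libraries, against 36.7, 30.1, 49.2 and 40.7 CPM in the contralateral ones. The sides did not overlap, and the log2 fold change was 1.61 ± 0.14 (edgeR adjusted p = 5.86e-04), a ratio of 3.05. Of 10572 genes tested, 6.33% passed, 3.36% higher and 2.97% lower, and 3 of 9 members did. The Adora2b difference also passed within cluster 5 (led by Vcan; 1.35 ± 0.19, edgeR adjusted p = 0.00452) and within cluster 11 (led by Plac8; 1.69 ± 0.16, 3.55e-06). In the 48 h libraries alone it missed the threshold (1.56 ± 0.26, adjusted p = 0.0890). After thinning, 25.3% of ipsilateral and 9.84% of contralateral cells of the class had an Adora2b UMI (intervals 24.1 to 26.4 and 7.95 to 12), and 64.3% and 33.1% did unthinned, at a median of 15554 UMIs.

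P2ry12 stood at 8.23 to 21.7 CPM in ipsilateral and 44.4 to 106 CPM in contralateral monocyte/macrophage-like cells (log2 fold change -2.03 ± 0.26, edgeR adjusted p = 0.00654). P2ry13 stood at 4.47 to 10.1 and 19.9 to 35.6 CPM (-1.55 ± 0.22, edgeR adjusted p = 0.00387). Both lay at 2.04% to 7.22% of the microglia-like level of the same library. Microglial transcripts moved the same way in that class, Tmem119 by -1.22 ± 0.16 and Gpr34 by -3.83 ± 0.26 on the log2 scale, and the part of free microglial RNA in these calls was not tested. Entpd1 stood at 96.4, 65.5, 80.3 and 77.8 CPM in ipsilateral and 37.1, 52.7, 46.1 and 72.0 CPM in contralateral libraries, higher in 4 of 4 pairs but with overlapping sides (log2 fold change 0.67 ± 0.24, edgeR adjusted p = 0.163). It passed in the 24 h libraries alone (1.26 ± 0.18, adjusted p = 0.0116) and under DESeq2 (0.71, adjusted p = 0.0378). P2ry6, P2rx4, P2rx7, Nt5e and Adora3 did not pass over all 8 libraries, at log2 fold changes of -0.53 to 0.24.

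Nt5e and P2rx7 were called in monocyte/macrophage-like cells of 1 time alone. Nt5e stood at 40.8, 28.1, 24.1 and 32.5 CPM in ipsilateral and 70.0, 14.1, 27.2 and 18.3 CPM in contralateral libraries, so it was higher on the ipsilateral side in both 48 h pairs and lower in both 24 h pairs. At 48 h alone it passed (0.92 ± 0.13, edgeR adjusted p = 1.12e-05), as 3 of 9 members did where 12.3% of genes passed, and at 24 h alone it had -0.40 ± 0.19 (adjusted p = 0.231). P2rx7 stood at 9.35, 15.3, 8.34 and 15.9 CPM in ipsilateral and 22.1, 21.7, 19.7 and 13.5 CPM in contralateral libraries. It passed at 24 h alone (-1.08 ± 0.22, edgeR adjusted p = 0.0298), as 5 of 9 members did where 7.24% of genes passed, and had -0.18 ± 0.16 at 48 h alone (adjusted p = 0.551). Each of these fits rests on 4 libraries, and the change of the difference with time did not pass for either gene (interaction 1.42 ± 0.64 for Nt5e and 0.92 ± 0.29 for P2rx7, edgeR adjusted p = 0.431 and 0.243).

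In neutrophil-like cells, Nt5e and Adora2b were higher on the ipsilateral side, and Entpd1 was higher in every pair without passing the test. Nt5e stood at 132, 67.9, 59.6 and 100.2 CPM in ipsilateral and 25.4, 22.1, 22.4 and 43.5 CPM in contralateral libraries, which did not overlap (log2 fold change 1.74 ± 0.37, edgeR adjusted p = 0.0373). Of 8588 genes tested 4.60% passed, 3.27% higher, and 2 of 9 members did. Adora2b stood at 29.2, 10.4, 21.8 and 5.44 CPM, against 10.9, 3.59, 1.06 and 0 CPM, so the sides overlapped although each pair was higher on the ipsilateral side (log2 fold change 2.46 ± 0.45, edgeR adjusted p = 0.00641). Entpd1 stood at 329, 191, 429 and 290.0 CPM, against 218, 172, 149 and 242 CPM (log2 fold change 0.75 ± 0.25, edgeR adjusted p = 0.112), and passed in the 24 h libraries alone (1.33 ± 0.22, adjusted p = 6.05e-06).

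The neutrophil-like calls also differed between the times fitted alone, each on 4 libraries. At 24 h 4 of 9 members passed, where 12.4% of genes did: Nt5e, Adora2b and Entpd1 were higher and P2ry12 was lower (-2.12 ± 0.32, edgeR adjusted p = 4.05e-06). At 48 h 1 of 8 passed, where 1.78% of genes did: Nt5e (1.37 ± 0.26, edgeR adjusted p = 0.0108), while Adora2b missed the threshold (2.002 ± 0.615, 0.144). P2ry12 stood at 18.3, 22.2, 15.9 and 51.0 CPM in ipsilateral and 50.9, 38.3, 114 and 43.5 CPM in contralateral neutrophil-like cells, at 2.44% to 9.00% of the microglia-like level of the same library. It did not pass over all 8 libraries (-1.09 ± 0.40, edgeR adjusted p = 0.188), and the change of its difference with time did not pass either (1.66 ± 0.51, adjusted p = 0.605).

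The contralateral class was small, down to 45 cells in a library, and the Nt5e call depended on single libraries. Nt5e missed the threshold without the contralateral WT library at 24 h (edgeR adjusted p = 0.204), the contralateral ones labelled Prdx1-/- at 24 h (0.122) or 48 h (0.104), or the ipsilateral WT library at 48 h (0.180). Both calls were lost with cells classed by marker score (0.117 for Nt5e and 0.0686 for Adora2b). After thinning, 18.6% of ipsilateral and 7.82% of contralateral neutrophil-like cells had an Nt5e UMI (intervals 17.4 to 19.7 and 5.69 to 10.4), against 0.129% and 0.0138% of microglia-like cells, and 24.0% and 11.8% did unthinned.

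The class held 3 clusters with unlike levels. Nt5e stood at 127 CPM in cluster 2 (led by Acod1 and Cxcr2), 15.4 CPM in cluster 10 (Retnlg, Mmp8) and 18.8 CPM in cluster 17 (Ltf, Ngp), and Adora2b at 24.6, 2.30 and 1.11 CPM. Entpd1 was alike in clusters 2 and 10 (334 and 316 CPM) and low in cluster 17 (50.5 CPM). Cluster 2 made up 73.7% ± 9.12 of neutrophil-like cells in ipsilateral and 33.7% ± 14.1 in contralateral libraries, and cluster 10 made up 22.1% ± 8.60 and 52.1% ± 7.89 (SD, n = 4 each). Cluster 2, where Nt5e was highest, was not tested alone. It held 12 and 17 cells in the contralateral 24 h libraries labelled WT and Prdx1-/-, under the minimum of 20. Whether Nt5e differed between hemispheres within it is thus not known. Within cluster 10 alone, where 0.719% of genes passed and 1 member did, Nt5e had a log2 fold change of 1.14 ± 0.52 (edgeR adjusted p = 0.520). The member that passed was P2ry12, lower at -1.78 ± 0.31 (edgeR adjusted p = 0.0120), beside Tmem119, which had -3.31 ± 0.23 over the class.

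**Figure D5:**
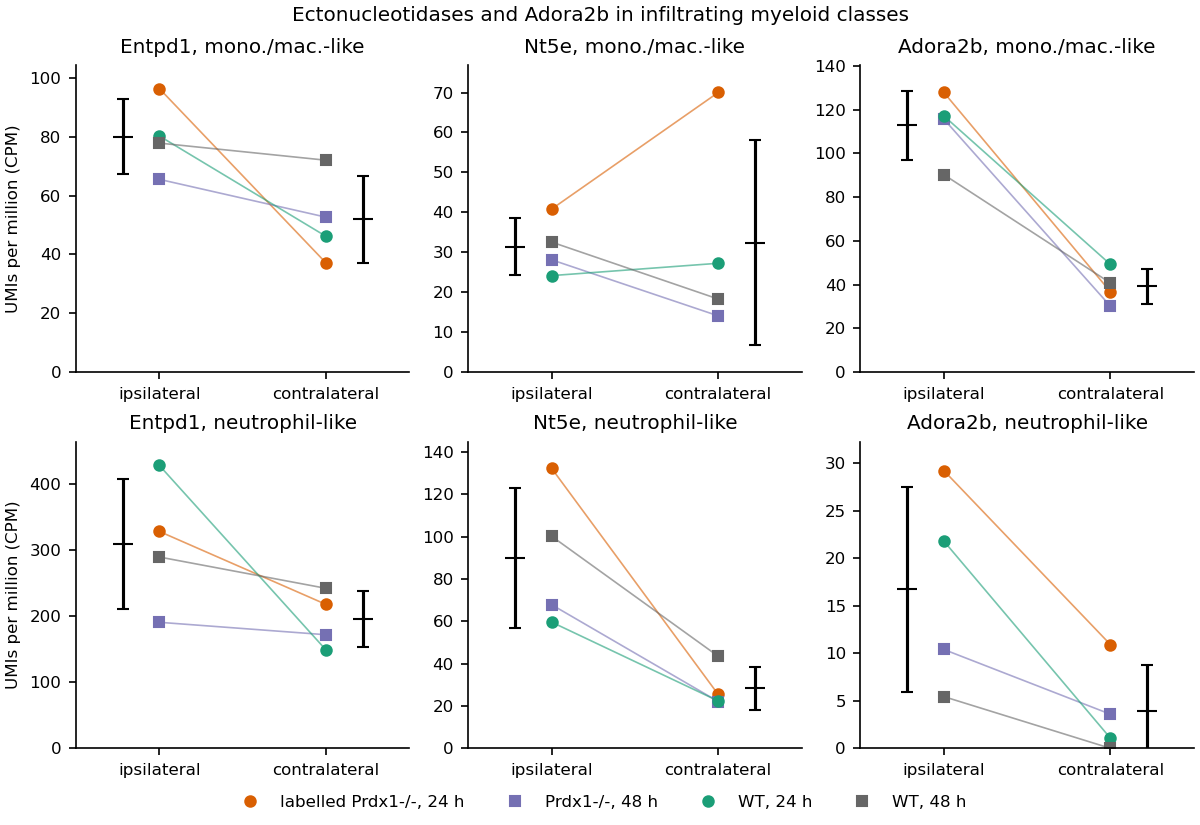
CPM of Entpd1, Nt5e and Adora2b in monocyte/macrophage-like (top) and neutrophil-like cells (bottom). Lines join the ipsilateral and contralateral library of 1 genotype label and time, and black bars are the mean ± SD of 4 libraries. Adora2b is higher on the ipsilateral side in all 4 pairs of both classes, and Nt5e is so in all 4 pairs of neutrophil-like cells.

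In T and NK-like cells 0 of 6 members tested differed between hemispheres by edgeR's or DESeq2's test, where 0.742% of 7684 genes did by edgeR, and 3 had an unadjusted p under 0.05. P2ry13 stood at 4.18, 1.28, 4.63 and 7.81 CPM in ipsilateral and 10.8, 18.2, 15.1 and 28.9 CPM in contralateral libraries, without overlap (log2 fold change -1.98 ± 0.47, edgeR adjusted p = 0.0641). It passed with the matched hemispheres as a block (-2.04, edgeR adjusted p = 0.0439, where 1.26% of genes passed) and with no low-count filter (-1.95, 0.0107). P2ry12 stood at 6.27, 0, 0 and 21.5 CPM, against 10.8, 35.1, 27.2 and 68.9 CPM, lower in 4 of 4 pairs with overlapping sides (-2.17 ± 0.64, edgeR adjusted p = 0.266). Beside them Tmem119 had -1.70 ± 0.66 and Gpr34 -1.47 ± 0.27 on the log2 scale in the class, and the part of free microglial RNA was not tested. Nt5e, found on regulatory T cells in mice, stood at 60.6, 56.2, 85.7 and 116 CPM in ipsilateral and 54.0, 44.2, 96.8 and 83.4 CPM in contralateral libraries, which overlapped (log2 fold change 0.26 ± 0.18, edgeR adjusted p = 0.656). Pooled over libraries, it was 85.4 CPM in the T cell cluster and 43.8 CPM in the NK cell cluster. P2ry6, Adora2b and Adora3 did not reach the filter on low counts.

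Between 48 h and 24 h, P2ry13, P2ry6 and Entpd1 were lower at 48 h in microglia-like cells, in 4 of 4 pairs each. The P2ry6 pair of contralateral libraries labelled Prdx1-/- was almost level, at the CPM given above. After thinning, 58.7% of its cells had a P2ry6 UMI at 24 h and 60.4% at 48 h, whereas the share fell in the other pairs. P2ry13 changed by a log2 fold change of -0.40 ± 0.08 (edgeR adjusted p = 0.00695), P2ry6 by -0.34 ± 0.09 (0.0255) and Entpd1 by -0.34 ± 0.09 (0.0243). Of all genes, 15.5% passed, 7.08% lower at 48 h, and of the members 3 of 9. P2ry12 had -0.30 ± 0.11 (edgeR adjusted p = 0.0849) and was lower in 3 of 4 pairs. The makeup of the class moved with time too. In the ipsilateral libraries labelled Prdx1-/- and WT, the proliferating cluster 14 held 0.283% and 1.305% of microglia-like cells at 24 h, against 22.7% and 25.7% at 48 h. In the contralateral ones it held 0.087% and 0.024%, against 5.67% and 5.99%. The part of this shift in the time differences was not tested. No member passed edgeR's test with cells classed by marker score or with cluster 6 added, where 12.6% of genes did. P2ry13 passed in all 8 fits that left out a library, P2ry6 was lost without any of the 4 ipsilateral libraries, and Entpd1 was lost in 5 of the 8, without the ipsilateral WT library at 24 h, the ipsilateral one labelled Prdx1-/- at 48 h or any contralateral library but the WT one at 24 h.

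P2ry6 in monocyte/macrophage-like cells, where 5.80% of genes passed, was higher at 48 h (0.48 ± 0.12, edgeR adjusted p = 0.0466), at 105 and 118 CPM in the 48 h ipsilateral libraries labelled Prdx1-/- and WT, against 65.8 and 80.0 CPM at 24 h. The call was lost in 7 of the 8 fits that left out a library, all but the one without the contralateral library labelled Prdx1-/- at 24 h. In neutrophil-like cells, where 1.65% passed, Adora2b was lower at 48 h (-2.09 ± 0.35, edgeR adjusted p = 0.00710), a call lost without the ipsilateral WT library at 24 h (-1.58, adjusted p = 0.230), that labelled Prdx1-/- at 24 h (0.0610) or the WT one at 48 h (0.0975).

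Between the genotype labels, P2ry12 was lower in microglia-like cells of libraries labelled Prdx1-/-, 1 of 9 members where 0.471% of genes passed. Its log2 fold change was -0.70 ± 0.11 (edgeR adjusted p = 0.0348), with the library labelled Prdx1-/- lower in 4 of 4 pairs, at the levels given above. These pairs may not be independent, since both hemispheres of a label and time may come from the same mice. The call was lost in 5 of 8 fits that left out a library (adjusted p 0.0769 to 0.177), namely any of the 4 ipsilateral libraries or the contralateral one labelled Prdx1-/- at 48 h. Cluster 0 took a smaller share of microglia-like cells under the label Prdx1-/- in 4 of 4 pairs (1.87% against 9.89% and 0.644% against 4.28% on the ipsilateral side, 30.0% against 56.8% and 17.7% against 29.0% on the contralateral side), and its part in the P2ry12 difference was not tested.

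At 48 h alone, the time at which the libraries labelled Prdx1-/- nearly lacked Prdx1, P2ry12 (-0.69 ± 0.09, edgeR adjusted p = 0.00217), Entpd1 (-0.48 ± 0.10, 0.0297) and P2ry13 (-0.41 ± 0.09, 0.0421) were lower in microglia-like cells, where 3.69% of genes passed. That fit rests on 4 libraries. At 24 h alone P2ry12 had -0.72 ± 0.14 (edgeR adjusted p = 0.0629), where 2.90% of genes passed and 0 members did. In each of the 3 other classes 0 members passed the tests of edgeR and DESeq2 over all 8 libraries, with 1 at an unadjusted p under 0.05 by edgeR, where 0.00946% of genes passed in monocyte/macrophage-like cells and 0% in the others. At 48 h alone 4 of 9 members passed in monocyte/macrophage-like cells, where 4.26% of genes did. P2ry12 (-0.49 ± 0.11), Entpd1 (-0.40 ± 0.09) and P2rx4 (-0.36 ± 0.09) were lower and Adora3 (0.76 ± 0.22) was higher in the libraries labelled Prdx1-/- (edgeR adjusted p 0.00581 to 0.0449). At 24 h alone, where 0% of genes passed in that class, P2ry12 had -0.80 ± 0.16, Entpd1 0.10 ± 0.17, P2rx4 0.37 ± 0.15 and Adora3 -0.33 ± 0.33 (edgeR adjusted p 0.400 to 0.993). Of the 4 genes, all but P2ry12 thus had the opposite sign at 24 h, and the difference between the times was not tested. At 48 h cluster 8 held 26.2% of ipsilateral monocyte/macrophage-like cells under the label Prdx1-/- and 41.0% under WT. On the contralateral side it held 24.4% and 29.5%, and its part in the 48 h calls was not tested.

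Whether the hemisphere difference itself changed with time or label was tested by interaction terms. In microglia-like cells 0 of 9 members passed either term by edgeR or by DESeq2, and 0 had an unadjusted p under 0.05 by edgeR, where 0.0911% of genes passed with time and 0% with the label. P2ry12 had an interaction of 0.36 ± 0.19 with time (48 h over 24 h, edgeR adjusted p = 0.467) and -0.34 ± 0.22 with the label (Prdx1-/- over WT, edgeR adjusted p = 1). In monocyte/macrophage-like cells, where 0.303% of genes passed with time, P2ry12 had 1.25 ± 0.21 (edgeR adjusted p = 0.0507) and Entpd1 -1.06 ± 0.27 (0.174).

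Other genes of the pathway were taken from a list of 35 enzymes, channels, transporters and receptors, of which 32 were in the tables. In microglia-like cells 20 were tested, of which 6 were higher, 2 lower and 12 did not pass between hemispheres, a share near the 43.0% of all genes that passed (22.0% higher and 21.0% lower). Slc29a3, a nucleoside transporter of lysosomes, stood at 169, 129, 189 and 142 CPM in ipsilateral and 265, 233, 289 and 242 CPM in contralateral libraries, without overlap (log2 fold change -0.58 ± 0.08, edgeR adjusted p = 3.66e-04). P2rx1, another ATP-gated channel, was lower at 3.63 to 5.72 against 6.30 to 7.83 CPM (-0.37 ± 0.13, edgeR adjusted p = 0.0422). Higher were Adk, the kinase that removes adenosine inside cells, at 20.4 to 29.6 against 15.4 to 18.7 CPM (0.58 ± 0.09, edgeR adjusted p = 7.77e-04), and Enpp1, an ectoenzyme that hydrolyses ATP (0.44 ± 0.12, 0.0153). Cd38, an ectoenzyme that consumes NAD, had 1.96 ± 0.42 at 2.07 to 7.46 against 0.189 to 3.85 CPM (edgeR adjusted p = 0.00690). Entpd3 was called higher (2.61 ± 0.66) at 0.0865 to 0.857 against 0 to 0.136 CPM. Of 21 tested in monocyte/macrophage-like cells 3 were higher and 2 lower, Slc29a3 among the lower, where 6.33% of genes passed. In T and NK-like cells 1 of 13 was higher, where 0.742% of genes passed. In neutrophil-like cells 0 of 16 passed by edgeR, with 5 at an unadjusted p under 0.05, where 4.60% of genes passed.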

How the data were processed

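Single-cell RNA was measured in 8 libraries (10x 3' version 2 chemistry), 1 for each hemisphere, genotype label and time. Per the labels and the deposited matrices, the values are UMI counts per gene and cell, not normalized. The submitters' processing notes name Cell Ranger, Seurat and the mm10 build, and versions are not given in the sources used here. There were 0 columns of no listed sample. The labels give no number that pairs libraries, and matched hemispheres share only a genotype label and a time.

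A minimum of 200 genes and a ceiling of 10% mitochondrial UMIs per cell left 39608 of 39945 cells, and 1583 doublet candidates, 0.8% per 1000 cells, were left out. Clusters were made with scanpy 1.11.5 and leidenalg 0.10.2 (30 components, 15 neighbours, resolution 1.0) without the 9 members and Prdx1. This gave 30 clusters, of which 5 stayed unnamed. A name needed 3 markers in at least 10% of cells and a score of 1.5 times the next. Counts were summed per class and library for classes with at least 20 cells in every library, and tested with edgeR 4.0.16 (quasi-likelihood, TMM, low counts filtered; R 4.3.3) on hemisphere, genotype label and time together, with interactions added in a second model. P-values were adjusted over all genes (Benjamini-Hochberg). DESeq2 1.42.0 and the other alternatives stand in the closing section. The fit was tested on simulated data. Sequences are from RefSeq and positions from GENCODE M21.

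All 9 members are described. Other pathway genes are named by the smallest p, up to 4 in each direction, and likeness by the 3 highest correlations. One item is not reported here. The members and lists were chosen with earlier results of these data known. Intervals and shares cover counting error only.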

Additional observations from a re-analysis of the deposited data

Results flagged for a closer look

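Values of the 9 members were screened in 72 groups of 4 libraries for a library far from the other 3, by Dixon's ratio, which chance exceeds in about 1 in 20 groups. There were 4 such values, from 2 libraries, the contralateral WT ones at 24 h and 48 h. P2ry12 in neutrophil-like cells stood highest in the contralateral WT library at 24 h, at 114 CPM, in a class of 93 cells. Nt5e in neutrophil-like cells stood highest in the contralateral WT library at 48 h, at 43.5 CPM. P2rx4 in T and NK-like cells stood lowest in the contralateral WT library at 24 h, at 18.1 CPM. Adora2b in T and NK-like cells stood highest in the contralateral WT library at 48 h, at 6.81 CPM. There 1.88% of 160 cells had an Adora2b UMI unthinned, against 0% in the other contralateral libraries. The ratio for this value was thus set by zeros, at a level near the floor.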

How the results depend on the processing

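The hemisphere result in microglia-like cells held under most settings: 7 to 8 of the 9 members passed when any 1 library was left out. Within single clusters, a choice made after seeing the data along with the WT-alone fit and the addition of cluster 6, 4 passed in cluster 1 and 0 in cluster 3 by edgeR, with 3 there at an unadjusted p under 0.05. Nt5e could not be tested in those 2 clusters or in the 48 h libraries alone. P2rx4, which never passed, changed sign in microglia-like cells to 0.0742 with cells classed by marker score, 0.0087 in WT-labelled libraries and 0.11 with cluster 6, and ranged over -0.10 to 0.0001 with 1 library left out. In monocyte/macrophage-like cells 3 to 4 members passed with 1 library left out, 5 in the 24 h libraries alone and 1 in cluster 11 alone. In neutrophil-like cells 1 to 4 passed with 1 library left out, 5 with no low-count filter, 0 by marker score, 1 at 48 h alone, 4 at 24 h alone and 1 in cluster 10 alone. In T and NK-like cells 1 passed with no low-count filter.

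With the matched hemispheres as a replicate block, 8 members passed in microglia-like, 3 in monocyte/macrophage-like, 3 in neutrophil-like and 1 in T and NK-like cells. The added calls were Adora3 in neutrophil-like cells (1.25, edgeR adjusted p = 0.0231) and P2ry13 in T and NK-like cells (-2.04, 0.0439), and P2rx4 in monocyte/macrophage-like cells changed sign under the block to 0.0019.

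For the genotype label in microglia-like cells, 0 to 2 members passed with 1 library left out, 3 under DESeq2 and at 48 h alone, 2 with no low-count filter or without the Spp1-led cluster, and 0 by marker score, at 24 h alone or with cluster 6. In monocyte/macrophage-like cells 4 passed at 48 h alone, and in T and NK-like cells 1 passed with no low-count filter, where P2ry13 changed sign to 0.10 with doublet candidates kept. For time, 1 to 3 members passed in microglia-like, 0 to 2 in monocyte/macrophage-like and 0 to 2 in neutrophil-like cells with 1 library left out. By marker score 0 passed in these 3 classes, and 0 also with cluster 6 in microglia-like cells and with doublet candidates kept or a stricter cell filter in monocyte/macrophage-like cells.

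Other sign changes were of hemisphere values that did not pass, and their cause was not tested. In monocyte/macrophage-like cells P2rx4 was 0.0063 with RLE size factors, 0.0072 under DESeq2, 0.035 with no low-count filter, 0.0468 by marker score, 0.0969 at 48 h alone, 0.17 in WT-labelled libraries and 0.34 in cluster 11. P2ry6 there was 0.0862 by marker score and 0.15 in WT-labelled libraries. Adora3 was 0.11 by marker score, 0.88 at 24 h alone and 0.61 in cluster 5, and Nt5e was -0.40 at 24 h alone and -0.16 in cluster 5. With 1 library left out they ranged over -0.16 to 0.17 for P2rx4, -0.18 to 0.0472 for P2ry6, -0.52 to 0.35 for Adora3 and -0.10 to 0.79 for Nt5e. In neutrophil-like cells P2ry6 was -0.26 at 24 h alone, P2rx4 was 0.0408 at 24 h alone and 0.13 in WT-labelled libraries, and P2ry13 was -0.21 in cluster 10, with ranges of -0.15 to 0.45 for P2ry6 and -0.46 to 0.20 for P2rx4 when 1 library was left out. Contralateral monocyte/macrophage-like and neutrophil-like classes were small, which limits what depth can show there.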

Other observations

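The source of a gene's UMIs differed between hemispheres, as a description that also depends on how many cells of each class were captured. Microglia-like cells gave 27.6% of all Entpd1 UMIs in the ipsilateral and 92.5% in the contralateral libraries. On the ipsilateral side 34.0% of Entpd1 UMIs came from neutrophil-like and 29.3% from monocyte/macrophage-like cells. P2rx4 UMIs came from microglia-like cells for 25.9% on the ipsilateral and 82.5% on the contralateral side, and P2ry12 UMIs for 88.0% and 96.9%. P2ry12 thus stayed a mostly microglia-like transcript on both sides, which Entpd1 and P2rx4 did not on the ipsilateral side.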
